A study of Mus musculus with 9 samples.

Results

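A photoreceptor carries its light-sensing outer segment on a modified primary cilium, so every protein of the outer segment passes through the connecting cilium at its base. The BBSome is a coat that moves membrane proteins along cilia, intraflagellar transport (IFT) trains carry cargo along the axoneme and are pulled outward by kinesin-2, the transition zone gates entry, and a set of small GTPases and lipid-binding carriers delivers lipid-modified proteins. Inherited defects in many of these genes cause retinal degeneration, alone or with disease of other ciliated organs.

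Here 39 such genes were followed, chosen by symbol among the 22337 genes of the deposited table, and each symbol matched 1 row. They were grouped by role as the BBSome and its assembly (10 genes), the IFT-B complex (8), the IFT-A complex and its adaptor (3), the kinesin-2 motors (3), the transition zone and axoneme (11) and the transport of lipidated cargo (4). All retinas were taken at P28, and each of the groups held 3 libraries: WT (C57 BL/6J, non-treated), NS (rd10 given normal saline) and MSC-EVs (rd10 given vesicles secreted by mesenchymal stem cells of human umbilical cord). Both rd10 groups share the mutation of Pde6b, a rod phosphodiesterase subunit, through which the line loses its rods. The injected eyes, both of each animal, had received 1 μl at P14 and at P21. The WT mice had neither the mutation nor an injection, so genotype and injection cannot be told apart between NS and WT. The sex of the mice is not given in the labels used here, nor whether a library held 1 animal or a pool. Nothing in the labels says that replicates came from separate animals, so p-values measure the spread between these samples.

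Total estimated counts per library ran from 19491717 to 62532343, and MSC-EVs replicate 3 was the deepest. Expression is given as CPM, counts scaled to a common library size with TMM factors, for comparisons of 1 gene between libraries, and as the authors' FPKM, which also divides by transcript length, for comparisons between genes. A difference was called when edgeR's quasi-likelihood test gave a Benjamini-Hochberg adjusted p under 0.05 over all genes tested. All 39 members passed the filter on low counts in each comparison. The rod markers checked the tissue: their summed FPKM was 32300 to 33900 in WT, 7190 to 9880 in NS and 7260 to 10600 in MSC-EVs libraries. The 4 Y-linked genes had 733 to 1957 counts each in MSC-EVs replicates 1 and 2 and at most 8 in every other library. MSC-EVs replicates 1 and 2 therefore held male RNA and stood apart from the rest of their group and of the series. Sex and treatment thus cannot be fully told apart in the comparisons with MSC-EVs libraries.

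The 30-base stretches below show what a search of the promoters found, because the X-box is the element bound by RFX factors, known regulators of ciliary genes. The pattern searched was its pair of half-sites, GTNNCC and GGNNAC in that order with 2 bases of any kind between them, which reads the same on both strands. The windows came from RefSeq on GRCm38.p6 and covered 250 bases before to 50 bases after each annotated start; 36 of the 39 members had one. The pattern stood in windows of 6 of the 36 members, or 16.7%, and in those of 2.16% of all 27025 genes with a window. Capitals mark the pattern, and each stretch is written 5′ to 3′ on the strand of its gene.
Bbs1 (chr19:4906605-4906634, minus strand): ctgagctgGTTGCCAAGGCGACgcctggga
Bbs4 (chr9:59353464-59353493, minus strand): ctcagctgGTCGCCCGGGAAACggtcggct
Bbs7 (chr3:36613489-36613518, minus strand): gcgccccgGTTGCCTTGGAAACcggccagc
Ift57 (chr16:49699199-49699228, plus strand): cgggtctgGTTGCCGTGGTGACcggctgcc
Nphp4 (chr4:152477903-152477932, plus strand): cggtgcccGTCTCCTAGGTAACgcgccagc
Ahi1 (chr10:20952560-20952589, plus strand): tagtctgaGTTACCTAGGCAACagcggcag
The pattern began 231, 121 and 87 bases before the start in Nphp4, Bbs7 and Ift57, and 1, 21 and 23 bases after it in Bbs1, Ahi1 and Bbs4. The starts used for Nphp4, Bbs7 and Ift57 are inside the gene bodies of the GENCODE M21 annotation, and that of Bbs1 is just inside. These distances hold for the RefSeq starts only.

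TAATCC, the core of sites bound by the photoreceptor factor CRX, was searched on both strands and stood in windows of 2 of the 36 members (5.56%) and of 8.14% of all genes. It is shown for Bbs1, which held both motifs without overlap, and for Mak, the gene called between the rd10 groups. In Mak it lay before a second RefSeq start that is inside the gene body of the GENCODE M21 annotation.
Bbs1 (chr19:4906807-4906836, minus strand): tcagtctagtctTAATCCctaaaaagcgct
Mak (chr13:41070666-41070695, minus strand): cccacaaaacagTAATCCcaccttgaacag
A match is a description of these letters and not evidence of binding.

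In WT retina the members spanned a wide range of levels per length. Arl3, a small GTPase that releases lipidated cargo in the cilium, was the highest with 209 ± 3.89 FPKM (SD, n = 3), followed by Fam161a with 147 ± 5.1, Pde6d with 106 ± 1.44, Arl6 with 93.9 ± 2.2 and Mak with 84.6 ± 2.47. Kif17 was the lowest with 1.05 ± 0.0666 FPKM, below Rp2 with 3.02 ± 0.229 and Rpgrip1l with 4.66 ± 0.24. Among BBSome subunits the FPKM ran from 69 ± 2.58 for Bbs7 to 27.9 ± 1.12 for Bbs1, and Bbs2 with 28.7 ± 0.768 did not differ from Bbs1 beyond their spread. The chaperonin-like assembly factors Bbs12 and Bbs10 were lower, with 15.5 ± 0.925 and 6.16 ± 0.131 FPKM.

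The comparison of NS-treated rd10 with WT retina asked how these genes stand in the degenerating retina. Of the 39 members, 28 were lower in NS-treated rd10 at an adjusted p under 0.05 and 2, Tulp3 and Iqcb1, were higher, while 9 were not called. Among all 14644 genes tested, 30.1% were lower and 31.2% higher. The median log2 fold change was -0.62 over the members and 0.01 over all genes tested. A log2 fold change of -1 or below was reached by 9 members, against 3.56% of all genes, and one of 1 or above by Tulp3 alone, against 9.16%. The libraries of NS and WT did not overlap in 32 members, 28 of them lower and 4 higher, where 66.9% of all genes did not overlap. In bulk retina, fewer cells of a type and less RNA per cell cannot be told apart. All 12 rod markers were lower as well (median log2 fold change of -1.91), while the 10 microglia and 8 gliosis markers were all higher. Of the Müller glia markers, 7 of 8 were higher. Of the cone markers 3 of 10 were higher and 3 lower, of the bipolar markers 5 of 10 were higher and 2 lower, and of 12 amacrine, horizontal and ganglion cell markers 10 were higher. The part of these shifts in the members' differences was not tested.

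**Figure D1:**
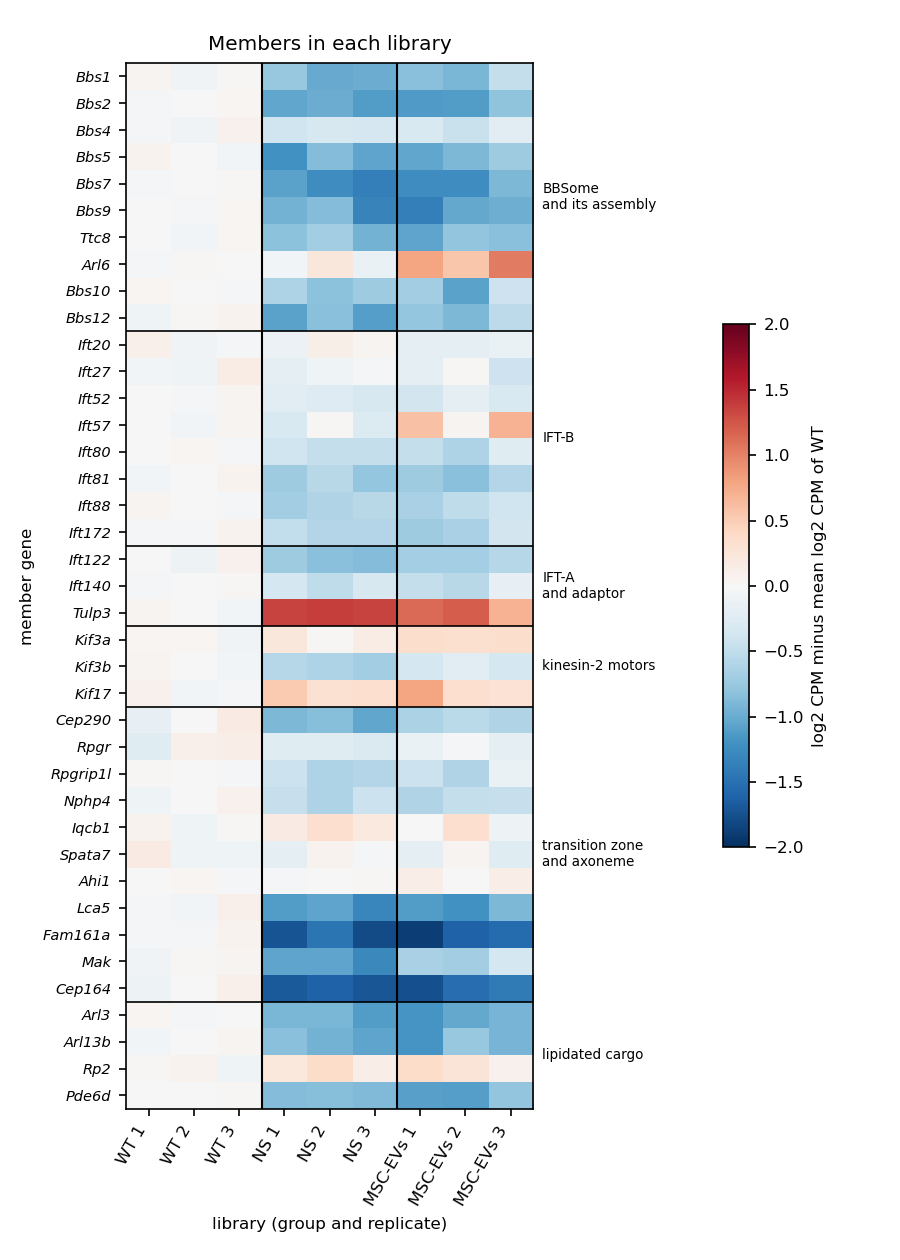
Heat map of the 39 members (rows, grouped by role) in the 9 libraries (columns), coloured by log2 CPM minus the mean log2 CPM of the WT libraries. Most rows are blue in both rd10 groups, Tulp3 is red in both, and Arl6 and Ift57 are redder in MSC-EVs than in NS libraries.

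The BBSome was lower almost throughout, with 9 of its 10 genes called lower and a median log2 fold change of -0.96. Bbs7, a subunit of the coat, was at 182, 184 and 187 CPM in the WT libraries and at 88.0, 77.8 and 71.5 CPM in the NS libraries. The groups were far apart, and Bbs7 was 2.33-fold lower (log2 fold change -1.22 ± 0.07 SE, edgeR adjusted p = 5.84e-08). The subunits Bbs2, Bbs5 and Bbs9 fell by 1.05, 1.05 and 1.04 on the log2 scale, Bbs1 by 0.92 and Ttc8, also known as BBS8, by 0.81. Bbs4 fell least among the subunits, by 0.36 ± 0.06 (edgeR adjusted p = 1.49e-04), from 156 to 174 CPM in WT to 124 to 131 CPM in NS libraries. Of the assembly factors, Bbs12 fell by 1.00 and Bbs10 by 0.71. Arl6, the small GTPase that recruits the BBSome to membranes, was the exception: it was at 124, 130 and 128 CPM in WT and 123, 149 and 116 CPM in NS libraries. These overlapped, and the log2 fold change was 0.02 with a 95% interval from -0.16 to 0.20. The ratio of Arl6 to Bbs2 in FPKM was 3.19 to 3.33 in WT and 5.88 to 7.02 in NS libraries.

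IFT-B, the complex that builds outward trains, was split. Ift81, Ift88, Ift172, Ift80 and Ift52 were lower, by 0.68, 0.62, 0.56, 0.45 and 0.27 on the log2 scale, while Ift20, Ift27 and Ift57 were not called; Ift57 was called lower without NS replicate 2 (-0.29, adjusted p = 0.00603). Ift81, part of the tubulin-binding module, was at 46.7, 48.6 and 51.0 CPM in WT and 29.8, 33.3 and 28.4 CPM in NS libraries, without overlap. Ift20, which also works at the Golgi, was at 30, 26.9 and 27.5 CPM in WT and 26.0, 30.5 and 29.2 CPM in NS libraries, and the groups overlapped. On the FPKM scale, which was not TMM scaled, Ift20 was called higher (limma, log2 fold change of 0.27 on log2(FPKM + 1), adjusted p = 0.00989) and Ift52 was no longer called (-0.12, adjusted p = 0.109).

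In the IFT-A group, which serves the return of trains and the entry of membrane receptors, 2 core subunits fell and the adaptor rose. Ift122 was at 59.6, 55.2 and 63 CPM in WT and 36.0, 33.1 and 32.3 CPM in NS libraries and fell by 0.81 ± 0.07 on the log2 scale (edgeR adjusted p = 1.53e-06). Ift140 fell by 0.40 ± 0.07. Tulp3, the tubby-like protein that links IFT-A to membrane cargo, was at 23.3, 22.4 and 21.5 CPM in WT and 57.3, 58.5 and 57.1 CPM in NS libraries. Its libraries were tightly grouped and did not overlap, and it was 2.56-fold higher (log2 fold change of 1.36 ± 0.07, edgeR adjusted p = 1.16e-08). The FPKM ratio of Tulp3 to Ift122 was 0.441 to 0.54 in WT and 2.04 to 2.31 in NS libraries.

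The kinesin-2 motors did not move together. Kif3b, the motor subunit that pairs with Kif3a in the heterotrimeric motor, was at 149, 142 and 138 CPM in WT and 96.3, 93.5 and 88.4 CPM in NS libraries, lower without overlap (log2 fold change of -0.63 ± 0.06, edgeR adjusted p = 2.21e-06). Kif3a was at 62.0, 61.9 and 57.9 CPM in WT and 71.1, 61.4 and 66.8 CPM in NS libraries, which overlapped (log2 fold change 0.13, edgeR adjusted p = 0.115). The FPKM ratio of Kif3a to Kif3b was 0.799 to 0.843 in WT and 1.24 to 1.46 in NS libraries. Kif17, the homodimeric motor, was at 3.77, 3.45 and 3.50 CPM in WT and 5.14, 4.41 and 4.53 CPM in NS libraries, without overlap but not called (log2 fold change 0.39, edgeR adjusted p = 0.0504). When counts were scaled by library totals, Kif3a, Kif17 and Rp2 were also called higher, with log2 fold changes of 0.31, 0.57 and 0.41. Over 17 alternatives they were called in 6, 7 and 8, which included upper-quartile scaling and limma on FPKM.

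The transition zone and axoneme group, in which Cep164 of the basal body was also placed, held the 2 largest falls among the members. In this group 8 of 11 genes were lower and 1 higher, with a median of -0.54 on the log2 scale. Cep164, a protein of the distal appendages that dock the basal body, was at 210, 225 and 243 CPM in WT and 70.4, 73.2 and 68.8 CPM in NS libraries. It was 3.20-fold lower (log2 fold change -1.68 ± 0.06, edgeR adjusted p = 1.59e-09). Fam161a, a microtubule-binding protein of the photoreceptor cilium, was at 251, 254 and 272 CPM in WT and 77.8, 94.3 and 75.0 CPM in NS libraries (log2 fold change -1.66 ± 0.08, edgeR adjusted p = 1.63e-08). In both genes the highest NS library lay well under the lowest WT library. Lca5, which encodes lebercilin, fell by 1.15 and Mak, a kinase of the axoneme, by 1.13 on the log2 scale. Mak was at 265, 281 and 287 CPM in WT and 133, 134 and 113 CPM in NS libraries.

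Of the gate proteins, Cep290 was at 78.9, 89.0 and 99.5 CPM in WT and 47.6, 49.2 and 43.2 CPM in NS libraries (log2 fold change -0.94 ± 0.09, edgeR adjusted p = 2.10e-06). Rpgrip1l and Nphp4 fell by 0.54 and 0.50. Rpgr, an X-linked gene, was called lower by 0.27 ± 0.10 (edgeR adjusted p = 0.0331), but its lowest WT library, at 24.0 CPM, was level with its highest NS library. The call was lost with library totals (adjusted p = 0.464), with upper-quartile scaling (0.0533) and in limma on FPKM (0.973 to 0.987). It was also lost without WT replicate 2 or 3 or NS replicate 3 (adjusted p = 0.137, 0.149 and 0.0839). Iqcb1, also called NPHP5, was at 23.9, 21.4 and 23.0 CPM in WT and 25.6, 28.7 and 26.0 CPM in NS libraries, higher by 0.23 ± 0.08 (edgeR adjusted p = 0.0277). This call was lost with DESeq2 (adjusted p = 0.0504) and in the edgeR fit of all 9 libraries (0.0886). It was also lost without WT replicate 2 or 3 or NS replicate 2 (0.12, 0.0578 and 0.0747). Ahi1, which encodes jouberin, ran from 190 to 200 CPM in WT and 190 to 199 CPM in NS libraries, with a log2 fold change of -0.01. It was called higher with library totals (0.17, adjusted p = 0.0145) and in limma on filtered FPKM (0.23, 0.0494 with a pseudocount of 1 and 0.0493 with 0.1). Spata7 was at 19.7 to 23.2 CPM in WT and 18.2 to 21.8 CPM in NS libraries and was not called.

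Of the 4 genes that move lipidated cargo, 3 were lower. Arl3 was at 196, 188 and 190 CPM in WT and 102, 101 and 88.6 CPM in NS libraries (log2 fold change -0.98 ± 0.06, edgeR adjusted p = 1.17e-07). Arl13b, which activates Arl3, and Pde6d, the carrier of prenylated proteins, fell by 0.94 and 0.87. Rp2, the GTPase-activating protein of Arl3, was at 14.4, 14.8 and 13.3 CPM in WT and 16.3, 18.3 and 15.6 CPM in NS libraries, which did not overlap but were not called different (log2 fold change 0.23, edgeR adjusted p = 0.0524).

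**Figure D2:**
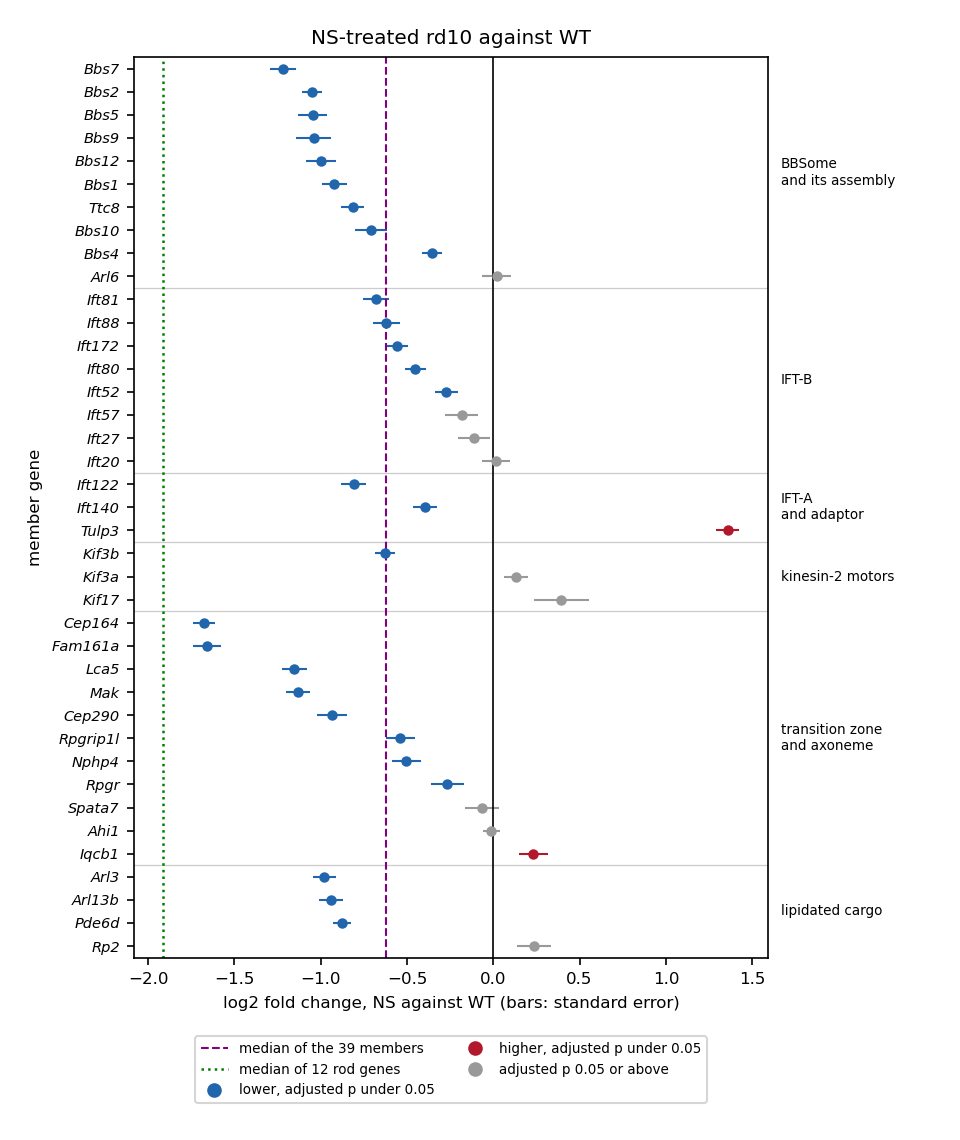
Log2 fold change of each member in NS-treated rd10 against WT (points) with its standard error (bars), by role; blue points were called lower, red points higher and grey points not called. The dashed line marks the median of the members at -0.62 and the dotted line that of the 12 rod markers at -1.91; Ahi1, beside 0, was called higher with library totals.

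The members were also ranked by their FPKM in WT. Of the 10 members with the highest WT FPKM, 8 were lower with a median log2 fold change of -0.92, and of the 10 with the lowest, 6 were lower and 2 higher with a median of -0.34. The 19 between them held 14 lower genes and a median of -0.68. These bands are a description and were not tested. Of the 6 members with the X-box pattern, Bbs7, Bbs1, Nphp4 and Bbs4 were lower, and Ift57 and Ahi1 were not called.

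Genes of the same pathways outside the members moved in the same direction. Of 22 other BBSome and IFT genes, 19 were lower with a median log2 fold change of -0.52, led by Ttc30a1, an IFT-B gene (-0.96 ± 0.09, edgeR adjusted p = 2.05e-06), and Dync2i1 of the retrograde motor dynein-2 (-0.95 ± 0.11). Of 21 other transition zone genes, 17 were lower and 2 higher with a median of -0.61; Tmem107 and Cc2d2a fell by 1.28 and 1.26, and Nek8 rose by 0.80. Of 13 further genes of the photoreceptor cilium, 12 were lower with a median of -1.47, led by the axonemal Rp1l1 (-1.89 ± 0.13) and by Tulp1 (-1.73 ± 0.09). Of 12 genes of motile cilia, 8 passed the filter, of which 4 were higher and 3 lower, with log2 fold changes from -1.36 to 0.91; the 12 summed to 13 to 15.9 FPKM in WT and 14.7 to 17.1 in NS libraries.

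The scale of the comparison mattered for the split of all genes. TMM scaling put 4562 genes higher and 4410 lower in NS than in WT libraries, and with library totals 6433 were higher and 2540 lower, as the median of all genes moved to 0.18. The members' median was then -0.44. On log2(FPKM + 1) the median of all genes was 0.14 and that of the members -0.37. A total of 26 members were called in NS against WT under every alternative except the requirement of a log2 fold change of 1, 25 of them lower, and Tulp3 was the one higher; that requirement left 9 lower and 1 higher.

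The comparison of MSC-EVs-treated with NS-treated rd10 retina asked whether the injected vesicles changed these genes. Of the 39 members, 1 was called: Mak was higher with MSC-EVs, where 0.914% of all 14765 genes tested were higher. No member was called lower, against 0.251% of all genes. At an unadjusted p under 0.05 in edgeR, 7 members were higher and 1, Tulp3, was lower. The share of all genes at that rule was not counted, so unadjusted counts have no background to be set against. DESeq2 called 5 members higher and 0 lower, where it called 631 of the 14765 genes higher and 299 lower. The median log2 fold change was 0.04 over the members and 0.00 over all genes. The libraries did not overlap in 10 members, 8 higher and 2 lower, where 26.2% of all genes tested did not overlap. Over the rod markers the median was 0.02 on the log2 scale, and none of the 12 was called (edgeR; 0 higher and 1 lower at an unadjusted p under 0.05, none by DESeq2). All 10 cone markers had negative values (median of -0.27), and their libraries did not overlap in 5; edgeR called 0, with 6 lower at an unadjusted p under 0.05, and DESeq2 called 4 lower. Of 12 amacrine, horizontal and ganglion cell markers 10 were negative (median of -0.22) and 6 did not overlap; edgeR called 0, with 5 lower unadjusted, and DESeq2 called 1 lower. In edgeR and in DESeq2, 2 and 3 of 10 bipolar and 1 and 3 of 8 Müller glia genes were called lower, and 1 and 3 of 8 gliosis genes higher. The summed FPKM of the 10 microglia genes was 234 to 289 in NS and 191 to 353 in MSC-EVs libraries. Their part in the value of Mak was not tested.

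Mak was at 133, 134 and 113 CPM in NS and 178, 171 and 217 CPM in MSC-EVs libraries, against 265 to 287 CPM in WT. The rd10 groups did not overlap, and every MSC-EVs library also lay under every WT library. Mak was 1.49-fold higher with MSC-EVs than with NS (log2 fold change 0.58 ± 0.11, 95% interval 0.33 to 0.82, edgeR adjusted p = 0.0465). Over 17 alternatives the log2 fold change stayed between 0.46 and 0.65, but the adjusted p ran from 3.36e-05 to 0.2 and 10 of them called the gene. The call was lost without MSC-EVs replicate 1 (adjusted p = 0.158) and without NS replicate 1, 2 or 3 (0.076, 0.137 and 0.2). It was also lost with upper-quartile scaling (0.0528), with limma without a filter (0.091) and with a replicate block (0.0769). Over all genes tested, 0 were called without MSC-EVs replicate 1, without NS replicate 3 and with limma without a filter. There were 32 called genes without NS replicate 2, 164 without NS replicate 1, 154 with upper-quartile scaling and 403 with the block. Without MSC-EVs replicate 3, which had almost no Y-linked counts, the value of Mak was 0.46 (edgeR adjusted p = 0.0473). That removal leaves MSC-EVs libraries with Y-linked expression against NS libraries almost without it, so it cannot separate sex from treatment. With the summed Y-linked level as a covariate the value of Mak was 0.79. This fit, not counted among the 17, leaves MSC-EVs replicate 3 alone to set the difference. Against WT, Mak was still lower after MSC-EVs (log2 fold change -0.55 ± 0.09, edgeR adjusted p = 6.36e-04).

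**Figure D3:**
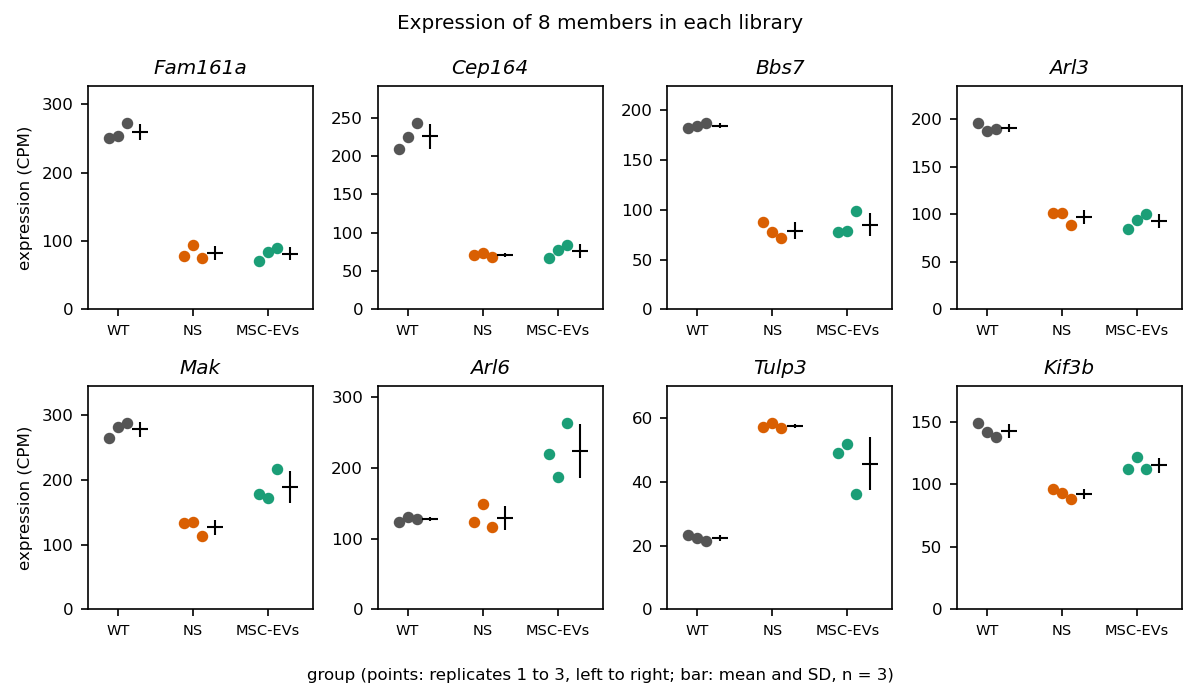
CPM of 8 members in each library, with the mean and SD of each group (n = 3) beside the points. Fam161a, Cep164, Bbs7 and Arl3 are low in both rd10 groups, Mak and Kif3b lie between NS and WT with MSC-EVs, Arl6 is highest with MSC-EVs, and Tulp3 is highest with NS. Of these 8 members, only Mak was called between the rd10 groups.

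Arl6 had the largest log2 fold change among the members between the rd10 groups but was not called. It was at 123, 149 and 116 CPM in NS and 220, 187 and 263 CPM in MSC-EVs libraries, so that the groups did not overlap (log2 fold change 0.80 ± 0.15, edgeR adjusted p = 0.0582). It was called in 5 of 17 alternatives: DESeq2 (adjusted p = 5.19e-07), the fit of all 9 libraries (0.0106), limma on filtered FPKM with either pseudocount (0.0482 and 0.0493) and the removal of MSC-EVs replicate 2 (0.00858). Ift57, a peripheral IFT-B subunit, was at 22.2, 28.1 and 22.8 CPM in NS and 41.3, 28.7 and 44.6 CPM in MSC-EVs libraries. The fitted log2 value was 0.66 ± 0.18 (edgeR adjusted p = 0.0999), and MSC-EVs replicate 2 stood near the NS libraries in it. Ift57 was called with DESeq2 (adjusted p = 0.00408), in the fit of all 9 libraries (0.0309) and without MSC-EVs replicate 2 (0.83, 0.00608). Kif3b was at 96.3, 93.5 and 88.4 CPM in NS and 112, 122 and 112 CPM in MSC-EVs libraries (log2 fold change 0.32 ± 0.07, edgeR adjusted p = 0.0556), and Cep290 at 47.6, 49.2 and 43.2 CPM and 57.1, 60.9 and 58.7 CPM (0.34 ± 0.08, 0.0621). In both genes the MSC-EVs libraries lay between the NS and the WT libraries, and both were called with DESeq2 (adjusted p = 0.00392 for Kif3b and 0.00809 for Cep290) and in the fit of all 9 libraries (0.0132 and 0.035).

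Tulp3 was at 57.3, 58.5 and 57.1 CPM in NS and 49.2, 52.0 and 36.3 CPM in MSC-EVs libraries, below them without overlap (log2 fold change -0.33 ± 0.12, edgeR adjusted p = 0.178). MSC-EVs replicate 3 was the lowest. Kif3a was at 71.1, 61.4 and 66.8 CPM in NS and 77.2, 75.7 and 77.7 CPM in MSC-EVs libraries, above them without overlap (log2 fold change 0.22 ± 0.07, edgeR adjusted p = 0.144). The FPKM ratio of Kif3a to Kif3b was 1.24 to 1.38 in MSC-EVs libraries, against 1.24 to 1.46 in NS libraries. That of Tulp3 to Ift122 was 1.16 to 1.9 with MSC-EVs, against 2.04 to 2.31. That of Arl6 to Bbs2 was 9.42 to 11.1 with MSC-EVs, against 5.88 to 7.02.

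Cep164, Fam161a, Bbs7 and Lca5, the members with the largest falls in NS against WT, were not called between the rd10 groups. Mak, with the next largest fall, was the member called. Values are given for the uncalled genes and for Arl3, the member with the highest WT FPKM. Fam161a was at 70.4, 84.3 and 89.4 CPM in MSC-EVs libraries, and against NS the log2 fold change was -0.01 (95% interval -0.27 to 0.25). Cep164 had 0.12 with an interval from -0.08 to 0.32, Lca5 0.09 from -0.14 to 0.32, Bbs7 0.11 from -0.14 to 0.37 and Arl3 -0.06 from -0.25 to 0.14. The upper bound of each interval was under the size of that gene's fall in NS against WT, and the intervals leave room for smaller differences. Over the 10 BBSome genes the median log2 fold change was 0.08, over IFT-B 0.00 and over the lipidated cargo genes -0.03, and none of these 22 genes was called in edgeR on the 6 libraries, while the fit of all 9 libraries called Arl6 and Ift57.

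**Figure D4:**
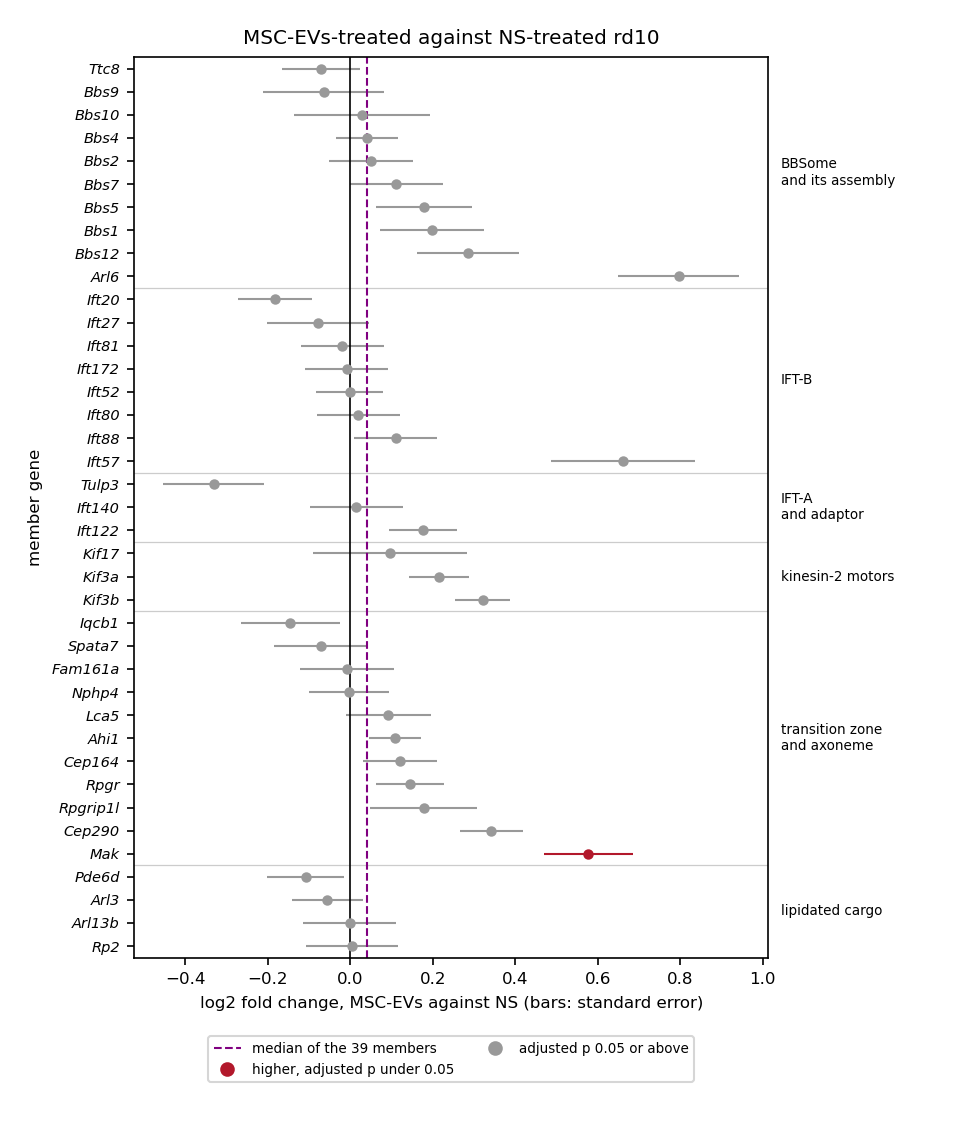
Log2 fold change of each member in MSC-EVs-treated against NS-treated rd10 (points) with its standard error (bars), by role; the red point is Mak, the only member called, and grey points were not called. The dashed line marks the members' median at 0.04, and the axis spans a smaller range than that of NS against WT.

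In the lists of other cilium genes, 0 of 22 BBSome and IFT genes, 0 of 21 transition zone genes and 0 of 13 photoreceptor cilium genes were called between the rd10 groups by edgeR, and DESeq2 also called 0. At an unadjusted p under 0.05 in edgeR, 7, 2 and 2 of them were higher and 1, 1 and 0 lower. The share of all genes at that rule was not counted, so these counts have no background. The medians of the lists were 0.11, 0.10 and 0.09 on the log2 scale.

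MSC-EVs-treated rd10 retina was also set against WT, a comparison that shares its WT libraries with the first and its MSC-EVs libraries with the second. Of the 39 members, 27 were lower and 5 higher, where 27.2% of all 14623 genes tested were lower and 28.3% higher, and the median log2 fold change was -0.51. A log2 fold change of -1 or below was reached by 6 members, against 3.2% of all genes, and one of 1 or above by Tulp3, against 9%. The libraries did not overlap in 34 members, against 65.1% of all genes. Cep164, Fam161a, Bbs7, Bbs9, Lca5 and Arl3 fell the most, by 1.55, 1.66, 1.10, 1.10, 1.06 and 1.03 on the log2 scale. The 5 higher members were Tulp3 (1.03 ± 0.13, edgeR adjusted p = 2.31e-04), Arl6 (0.82 ± 0.11, 5.62e-04), Ift57 (0.49 ± 0.15, 0.0238), Kif17 (0.49 ± 0.19, 0.0456) and Kif3a (0.35 ± 0.06, 6.11e-04). Without MSC-EVs replicate 1, or without WT replicate 1, 2 or 3, 3 members were called higher. Tulp3, Arl6 and Kif3a were called higher under every alternative except the requirement of a log2 fold change of 1, which Tulp3 alone met. All 12 rod markers were lower here too (median of -1.92), as were 6 of 10 cone markers with 1 higher, while all 10 microglia and 8 gliosis markers were higher. Müller glia markers were higher in 6 of 8 and lower in 1, bipolar markers higher in 4 and lower in 4 of 10, and amacrine, horizontal and ganglion cell markers higher in 6 of 12. Their part in the members' differences was not tested.

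The estimated count and the FPKM of a gene together imply the mean length of the transcripts to which its reads were assigned. Isoform use itself was not measured, and the implied length also varied in Ift88, which has 1 coding transcript in GENCODE M21. This length was compared with limma on the log2 scale in 38 members; Kif17 was left out, because it fell under an FPKM of 1 in WT replicate 2 (0.97). Between NS and WT the libraries did not overlap in 7 members, 1 longer and 6 shorter, where 15.6% of all genes did not overlap, and none was called, against 0.06% of all genes. Arl6 was the longer one, with 1246, 1264 and 1254 bases in WT and 1386, 1365 and 1361 bases in NS libraries, or 9.25% longer (limma adjusted p = 0.0724). Rpgr was shorter by 5.66% (limma adjusted p = 0.356), with 3455, 3328 and 3408 bases in WT and 3273, 3176 and 3165 bases in NS libraries.

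Between MSC-EVs and NS the implied length did not overlap in 4 members, against 20.4% of all genes, and none was called, against 0.0343%. Ahi1 was at 4079, 3392 and 3544 bases in NS and 4667, 4433 and 4516 bases in MSC-EVs libraries, 24.0% longer with an adjusted p of 0.248 in limma. Mak was 4.89% shorter (limma adjusted p = 0.323), with 3017, 3100 and 3075 bases in NS and 2958, 2825 and 2962 bases in MSC-EVs libraries. Between MSC-EVs and WT it did not overlap in 6 members, against 20.7% of all genes, and 1 was called, against 0.171%. That one was Ttc8, with 2233, 2242 and 2246 bases in WT and 2161, 2160 and 2165 bases in MSC-EVs libraries (3.50% shorter, limma adjusted p = 0.0361), and the call was lost without any MSC-EVs replicate and without WT replicate 2 or 3. Bbs2, with a single coding transcript in GENCODE M21, stayed between 3063 and 3065 bases in all 9 libraries. Of the other members with a single coding transcript, Bbs10 ran from 2740 to 2746 and Kif3b from 5634 to 5637 bases. Ift88, also with 1, ran from 2681 to 3089 bases.

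**Figure D5:**
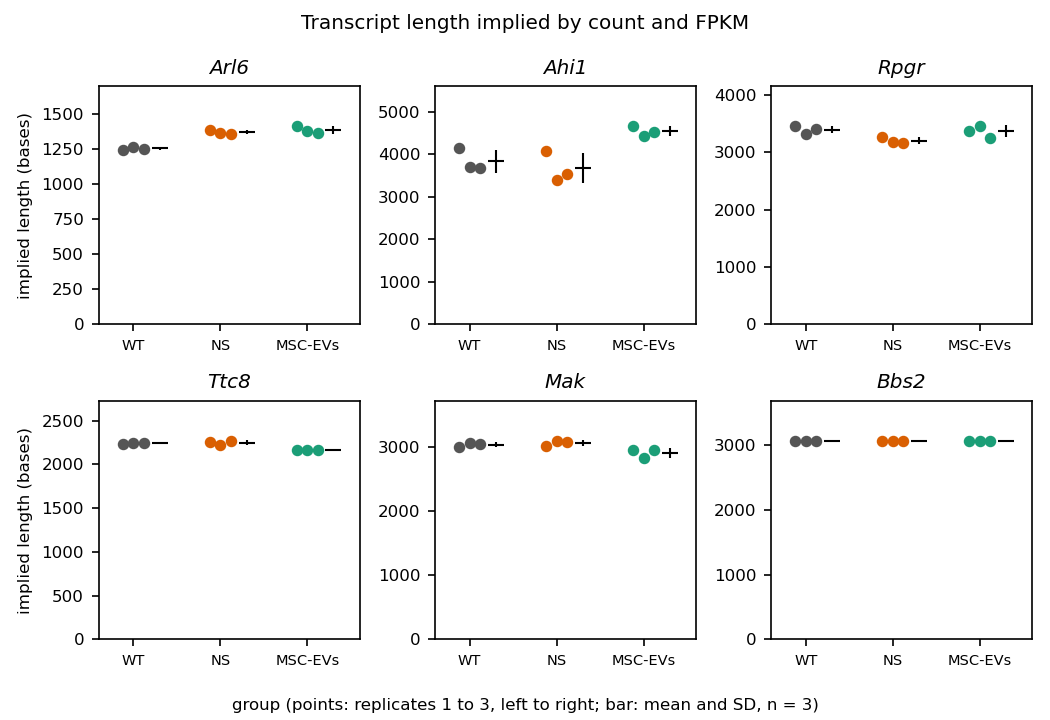
Mean transcript length implied by count and FPKM, in bases, for 6 members in each library, with the mean and SD of each group (n = 3). Arl6 is longer in both rd10 groups than in WT, Ahi1 is longest with MSC-EVs, Ttc8 is shortest with MSC-EVs, and Bbs2 is level at 3063 to 3065 bases. Of these differences, only that of Ttc8 between MSC-EVs and WT libraries was called.

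All 39 members are in GENCODE M21 on GRCm38, on 18 chromosomes, with Rpgr and Rp2 on X. In 6 members some exonic bases are shared with a gene on the opposite strand: Bbs4, Arl6, Bbs12, Ift57, Ift88 and Cep290. The share was 2.62% in Arl6 (with 4930547E14Rik), 7.86% in Ift57 (with Gm15518) and 7.58% in Cep290 (with 4930430F08Rik), and strand use in counting is not given in the sources used here, so reads of these partners cannot be told apart there. Arl3 shared 4.81% of its 50-base stretches with Gm37567, and its counts are uncertain to that extent.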

How the data were processed

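Retinal mRNA was captured on oligo(dT) beads for short-read sequencing. For every gene and library the authors deposited an estimated count, not scaled to depth, beside the FPKM that they normalized for transcript length and depth. The submitters' processing notes name fastp, Bowtie2, HISAT2, StringTie 1.3.1 and RSEM. The genome build and annotation are not given in the sources used here. Counts carried decimals in 9.16% to 11.7% of genes and were rounded, although the design had assumed whole counts. Genes passing filterByExpr were tested with edgeR 4.0.16 in R 4.3.3 (TMM, robust quasi-likelihood) on the 6 libraries of each comparison, with Benjamini-Hochberg adjustment over all genes tested. FPKM and implied length were tested with limma 3.58.1, the latter over genes with at least 50 counts and an FPKM of 1 in every library and with the analysis chosen after seeing the data. DESeq2 1.42.0 was an alternative. The members and lists were chosen with earlier results of these data known; all members are named, of other cilium lists at most the 2 largest called falls and rises per comparison. Replicates differed by more than sampling noise (chi-square divided by its degrees of freedom 4.1 to 31.3), so none was counted as a duplicate. Standard errors are the absolute log2 fold change divided by the square root of F, and 95% intervals use the t quantile at the fit's degrees of freedom for that gene (7.15 to 12.1). Ift80, Ift81 and Ift122 had no promoter window.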

Additional observations from a re-analysis of the deposited data

How the results depend on the processing

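Members called lower in NS against WT numbered 28, and 9 with a log2 fold change of at least 1 required; leaving out a library gave 27 to 29. Members called higher numbered 2, and 5 with upper-quartile scaling, 6 with library totals, 1 with DESeq2, 4 with at least 10 counts in every library, 1 with all 9 libraries, 7 with limma on FPKM with either pseudocount, 6 with limma without a filter, 1 at the fold threshold, and 1 to 3 without a library. The median of -0.62 was -0.588 with upper-quartile scaling, -0.442 with library totals, -0.374 with limma on log2(FPKM + 1) with or without a filter, -0.446 with log2(FPKM + 0.1), and -0.635 to -0.59 without a library. Rpgr moved to 0.00 in limma under all 3 settings, and Ahi1 to 0.17 with library totals and 0.23 in limma with a filter.

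In MSC-EVs against NS, no member was called lower except Tulp3 with a Y-linked covariate (1 member, log2 fold change of -0.65), a fit that leaves MSC-EVs replicate 3 alone to set the difference, and each removal of a library gave 0. The 1 higher call became 0 with upper-quartile scaling, with limma without a filter and at the fold threshold, 5 with DESeq2 and with all 9 libraries, 2 in limma with either pseudocount and with the Y-linked covariate, and 0 to 3 without a library. The median of 0.04 was 0.196 with that covariate and -0.01 to 0.104 without a library. Over all genes tested, 172 were called in the main fit, 930 with DESeq2, 1026 with all 9 libraries and 0 in limma without a filter.

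In MSC-EVs against WT, 27 members were lower and 6 at the fold threshold, with 26 to 28 without a library. Higher members numbered 5, 1 at the fold threshold, and 3 to 6 without a library. The median of -0.51 was -0.351 with library totals, -0.293 with limma on log2(FPKM + 1) with or without a filter, -0.321 with log2(FPKM + 0.1), and -0.573 to -0.454 without a library. The split of all genes with library totals was 5722 higher and 2295 lower, against 4137 and 3980, and the median of all genes was 0.15. Implied length, with alternatives added after seeing the data, gave 0 to 1 called members without a library in MSC-EVs against NS and in MSC-EVs against WT, and 0 in NS against WT. The cause of these shifts was not tested.

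The replicate block changed few calls among the members: 28 lower and 3 higher in NS against WT, 1 higher and 0 lower in MSC-EVs against NS, and 27 and 5 in MSC-EVs against WT. Between the rd10 groups it called Kif3b (0.32, adjusted p = 0.0465) in place of Mak (0.57, 0.0769), and in NS against WT it added Rp2 (0.0455). Over all genes it raised the calls between the rd10 groups from 172 to 403. Deviations of samples with the same number correlated at 0.081, 0.209 and 0.272 between the rd10 groups and at -0.079 to 0.078 in the comparisons with WT, so the numbers were not taken to pair the samples. Each of the 6 samples correlated best with its own number in MSC-EVs against NS and in MSC-EVs against WT, and 2 of 6 in NS against WT, which is a hint from the data. The paper states that littermates among the rd10 mice received either vesicles or saline, but the labels link no replicate number to a litter.

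With 3 libraries a group and 1 deep MSC-EVs library, differences of about the size of the standard errors, 0.05 to 0.19 on the log2 scale, were not detectable. Between the rd10 groups, fitted differences several times as large were also not called, such as 0.80 ± 0.15 in Arl6 and 0.66 ± 0.18 in Ift57. Every setting that was planned was run. Kif17 had the fewest counts, 70 to 282 a library, a counting error of 5.95% to 12% a library, which is not small beside its standard errors of 0.16 to 0.19 on the log2 scale; the next lowest library of any member, of Bbs10, had 205 counts.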
